A study of Mus musculus with 4 samples.

Results

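Interferon-stimulated and RNA-sensing genes were examined in the livers of mice with and without ADAR2 on a high-fat diet (HFD). The 37 genes were chosen by name, as known type I interferon-stimulated genes and cytosolic RNA sensors, from the 25655 genes of the deposited count table, and all 37 were found and passed the filter on low counts that left 12967 genes for testing. HFD-WT mice carried intact ADAR2 and HFD-KO mice lacked it (ADAR2-/-). Both genotypes were homozygous for the GluR-B R allele, the edited form of a glutamate receptor gene that rescues mice without ADAR2 from early death, and both had a mixed B6129S background. Male mice received the diet from 5 weeks of age for 12 weeks. Each group had 2 libraries of polyA RNA from whole liver. The study describes more mice per group than there are libraries. Whether a library holds RNA of a single mouse or of several was not stated in the sources used here. The p-values therefore weigh differences against a spread between libraries, estimated partly from other genes, which may not be the spread between mice.

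Cells sense viral or unedited cellular double-stranded RNA with the helicases MDA5 (Ifih1) and RIG-I (Ddx58), which signal through MAVS to the transcription factors IRF3 and IRF7 and so to interferon genes. Secreted type I interferon binds its receptor and activates a complex that contains STAT2 and IRF9 and binds the interferon-stimulated response element (ISRE) near the genes they induce. The products of those genes bind, cut or modify RNA, hold back virus particles or dampen the response. In liver, hepatocytes as well as resident macrophages, sinusoidal endothelial cells and plasmacytoid dendritic cells can take part in this response. RNA editing by ADAR1, encoded by Adar, is known to keep cellular double-stranded RNA from MDA5. ADAR2, encoded by Adarb1, is known mainly for recoding of glutamate receptor RNA.

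The choice by name read no sequences. It did take known interferon-stimulated genes, so a raised share with an ISRE was likely from the choice itself. The stretches of 60 bases that hold a match are shown for 9 of the 11 members with one. Cxcl10 and Stat2, whose matches lay farthest from the start, are left out. The upstream sequences came from a set of RefSeq starts on GRCm38.p6, and the set used here held 27 of the 37 members. In the 250 bases before an annotated start, the core motif GAAANNGAAA on either strand was present for 11 of these 27 members (40.7%), against 3.41% of 10161 tested genes with such a sequence. It was present for 49 of 150 other genes of the pathway (32.7%). The GAS motif TTCNNNGAA, another interferon-related element, which can overlap an ISRE, was present for 4 of the 27 members (14.8%) and for 7.41% of the tested genes. A match describes letters in this window and is not evidence of binding. Each stretch runs 5′ to 3′ on the strand of the gene and ends before the start, with matches to the ISRE core in capitals, also where they overlap or lie on the other strand. Ifit3 and Ifit3b each had 2 matches in the 250 bases, of which the stretch holds 1.

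Isg15, chr4:156200850-156200909, minus strand, 3 overlapping matches: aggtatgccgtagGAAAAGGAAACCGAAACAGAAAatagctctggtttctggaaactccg
Bst2, chr8:71537562-71537621, minus strand, 2 overlapping matches: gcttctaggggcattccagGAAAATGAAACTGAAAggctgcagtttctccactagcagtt
Rsad2, chr12:26456538-26456597, minus strand: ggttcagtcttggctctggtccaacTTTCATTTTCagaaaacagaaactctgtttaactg
Oas3, chr5:120777700-120777759, minus strand: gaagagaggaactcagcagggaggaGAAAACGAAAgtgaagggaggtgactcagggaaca
Oas1a, chr5:120907526-120907585, minus strand: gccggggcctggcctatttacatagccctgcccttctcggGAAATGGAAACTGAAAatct
Oas1g, chr5:120887614-120887673, minus strand: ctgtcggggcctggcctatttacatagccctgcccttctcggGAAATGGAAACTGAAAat
Ifit1, chr19:34640779-34640838, plus strand, 2 matches: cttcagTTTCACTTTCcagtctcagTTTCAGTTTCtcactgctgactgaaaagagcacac
Ifit3, chr19:34583382-34583441, plus strand: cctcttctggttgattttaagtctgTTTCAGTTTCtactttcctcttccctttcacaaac
Ifit3b, chr19:34607778-34607837, plus strand: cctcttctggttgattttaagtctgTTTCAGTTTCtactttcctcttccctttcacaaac

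The stretches of Ifit3 and Ifit3b are identical, and those of Oas1a and Oas1g hold the same double match close to the start. Both pairs are related genes that share stretches of sequence. Of the stretches of 100 bases, the read length, in their GENCODE transcripts, 31.7% of Ifit3 and 27.4% of Ifit3b occurred in both genes, and 40.9% of Oas1a and 38.2% of Oas1g did. How the authors assigned such reads was not stated in the sources used here, so the division of reads within these pairs is uncertain. Rtp4 shared 9.28% of its stretches with another gene, and 28 of the 37 members shared none.

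The total count was between 24480798 and 28691330 reads per library. Expression was given as counts-per-million (CPM) of the library size after TMM scaling, a correction for differences in RNA composition, and 3 reads corresponded to between 0.104 and 0.126 CPM, which covers counting error only. Adarb1, the targeted gene, had 15.7 and 19.8 CPM in the HFD-WT libraries and 6.23 and 9.54 CPM in the HFD-KO libraries. Reads on Adarb1 were therefore present in both HFD-KO libraries, at 0.443 times the HFD-WT level (95% interval 0.318 to 0.618, adjusted p = 0.159 by edgeR and 0.00067 by DESeq2), and which exons they covered cannot be read from counts summed over a gene. Adar had 32.8 and 30.0 CPM in HFD-WT and 34.4 and 30.2 CPM in HFD-KO, and the groups overlapped. Each of the 9 hepatocyte markers in the table was detected in every library, in keeping with the liver label. The HFD-KO libraries stood apart from each other. Summed over 12 B cell and plasma cell markers, expression was 130.9 CPM in HFD-KO replicate 1 against 18.5 to 29.4 CPM in the other libraries, and summed over the hepatocyte markers it was 92478 CPM in HFD-KO replicate 2 against 78316 to 78689 CPM elsewhere, a gap that came mostly from albumin (Alb, 66078 CPM against 52656 to 54879 CPM).

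Per transcript length, the members spanned a wide range of levels in these livers. The authors' transcripts-per-million (TPM) values were used to compare genes, since they correct for length. Bst2 was the most abundant, with 347 and 366 TPM in HFD-WT and 302 and 293 TPM in HFD-KO, and lay at percentile 97.1 of the tested genes. Bst2 encodes tetherin, which holds budding virus particles at the cell surface. Ifi27 followed with a mean of 137 TPM over the 4 libraries (SD 8.30), then Lgals3bp with 93.3 TPM (SD 15.7), Mavs with 59.7 TPM (SD 3.38), Ifi27l2b with 57.7 TPM (SD 19.7) and Isg15 with 50.3 TPM (SD 8.53). The first 3 did not overlap with their neighbours in this order in any library, while Mavs, Ifi27l2b and Isg15 lay within each other's spread. The 3 least abundant members were OAS genes, Oas2, Oas1g and Oas3, down to Oas3 with 0.874 TPM (SD 0.247) at percentile 13.4. The median member had 13.1 TPM, against 7.67 TPM for the median tested gene, and 24 of the 37 members were above that median.

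**Figure D1:**
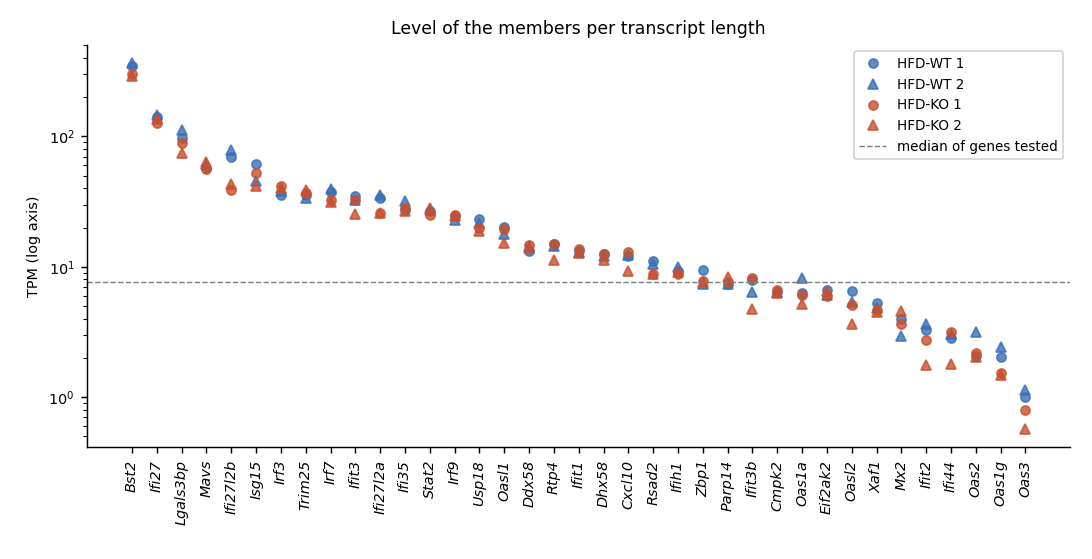
Level of each of the 37 members in TPM on a log axis, in order of the mean over the 4 libraries. Each point is 1 library, with circles for replicate 1, triangles for replicate 2, blue for HFD-WT and red for HFD-KO, and the dashed line marks the median of the tested genes at 7.67 TPM. Bst2 at 327 TPM on average is the highest and Oas3 at 0.874 TPM the lowest.

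The comparison of genotypes asked whether loss of ADAR2 went with another level of interferon and RNA-sensing genes under the diet. At an adjusted p under 0.05 by edgeR, 0 of the 37 members were higher in HFD-KO and 0 lower, against a background of 0.054% higher and 0.0231% lower among the tested genes. At an unadjusted p under 0.05, 1 member was higher, Irf3, and 7 were lower, Ifi27l2b, Ifi27l2a, Rsad2, Lgals3bp, Bst2, Irf7 and Ifit2. Of all tested genes 4.25% were higher and 4.73% were lower at that threshold, so 2.70% of the members were higher and 18.9% were lower. Scaling by library size without TMM gave 0 higher and 7 lower among the members and 345 higher and 894 lower among all genes, against 551 and 613 with TMM. By DESeq2's Wald test, 1 member, Ifi27l2b, was lower and 0 were higher at an adjusted p under 0.05, where 0.471% of the genes with such a p were lower and 0.433% were higher. The number of lower members moved with the library left out. The number over all tested genes moved too, but not always in the same direction. The median log2 fold change of HFD-KO over HFD-WT over the members was -0.24 without HFD-KO replicate 1 and -0.0074 without HFD-KO replicate 2. It was -0.053 without HFD-WT replicate 1 and -0.13 without HFD-WT replicate 2. Over all tested genes this median stayed between -0.00095 and 0.0066. In whole liver, fewer cells of a type and less RNA per cell cannot be told apart.

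The size of the differences was small for most members. The median log2 fold change of HFD-KO over HFD-WT was -0.08 over the 37 members and 0.0068 over all tested genes. Of the members 25 were below 0 (67.6%) and 12 above it, while 48.4% of all tested genes were below 0. For 26 of the 37 members the 95% interval of the fold change lay within 1.5-fold in both directions, a share of 70.3% against 65.2% of all tested genes. The intervals of 4 members reached a 2-fold reduction, those of Oas1g, Oas3, Ifit2 and Ifi27l2b, and no member's interval reached a 2-fold increase. Both HFD-KO libraries lay above both HFD-WT libraries for 6 members (20.5% of all tested genes did) and below them for 11 members (20.3% of all tested genes did), while 20 members overlapped. Of the 11 members with an ISRE match, 9 had a log2 fold change below 0, with a median of -0.15. Of the 16 with an upstream sequence but no match, 9 did, with a median of -0.04. Members without an upstream sequence were in neither group, among them Ifi27l2b and Ifi27l2a, both lower, and Mx2 and Parp14, both higher. The matched members include the pairs Oas1a and Oas1g, and Ifit3 and Ifit3b, which share sequence. This is a description without a test.

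**Figure D2:**
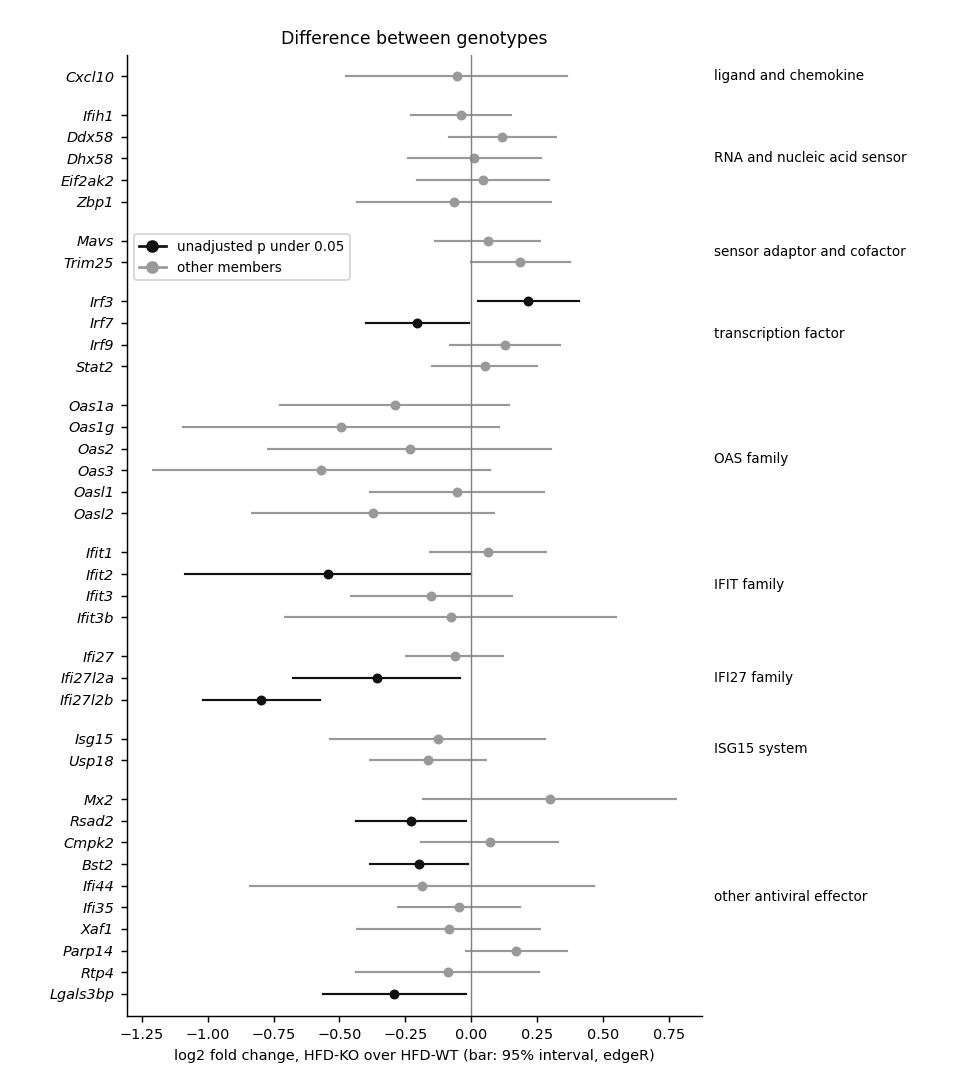
Log2 fold change of HFD-KO over HFD-WT for each member by role, with its 95% interval from edgeR as a bar. Black marks the 8 members with an unadjusted p under 0.05, and the vertical line marks no difference. Ifi27l2b at -0.80 lies farthest from 0, and the sensors and their adaptors lie within 0.19 of it.

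The sensors of RNA and their partners lay close together in the 2 genotypes. Ifih1, which encodes MDA5, had 25.4 and 26.8 CPM in HFD-WT and 25.3 and 25.6 CPM in HFD-KO. Its fold change was 0.973 (95% interval 0.853 to 1.11, adjusted p = 0.917 by edgeR). Ddx58, which encodes RIG-I, had 25.5 and 27.2 CPM in HFD-WT and 29.7 and 27.4 CPM in HFD-KO, a fold change of 1.09 (95% interval 0.943 to 1.25, adjusted p = 0.725). The HFD-KO libraries were above the HFD-WT libraries for Ddx58 by a margin smaller than the difference within either group. Dhx58, which encodes the regulatory helicase LGP2, Eif2ak2, which encodes the RNA-activated kinase PKR, and Zbp1, which encodes a sensor of Z-form nucleic acid, all overlapped between the groups, with fold changes of 1.01, 1.03 and 0.956. Mavs, the adaptor of MDA5 and RIG-I, had 92.4 and 96.6 CPM in HFD-WT and 94.0 and 103.3 CPM in HFD-KO and overlapped too. Trim25, an E3 ligase that acts on RIG-I signalling, had 102.9 and 95.5 CPM in HFD-WT and 112.1 and 113.7 CPM in HFD-KO, a fold change of 1.14 (95% interval 0.998 to 1.30, adjusted p = 0.559). The intervals of all 7 of these genes lay within 1.5-fold.

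Among the transcription factors, Irf3 was higher and Irf7 lower in both HFD-KO libraries, and neither passed the adjusted threshold. Irf3, which is made in most cells and is activated by phosphorylation below MAVS (ENSMUSG00000003184, chromosome 7, 44647072 to 44652272 of GRCm39), had 45.8 and 47.6 CPM in HFD-WT and 55.7 and 52.8 CPM in HFD-KO. Both HFD-KO libraries were above both HFD-WT libraries, with a log2 fold change of 0.22 ± 0.082 (SE) and an adjusted p = 0.507 by edgeR. Irf3 overlaps Bcl2l12, a gene on the other strand with 371 reads in all libraries against 5366 for Irf3. Irf7, which interferon itself induces and which drives further interferon genes (ENSMUSG00000025498, chromosome 7, 140842619 to 140846394), had 45.8 and 47.1 CPM in HFD-WT and 41.6 and 39.0 CPM in HFD-KO. Its HFD-KO libraries were both below the HFD-WT libraries, with a log2 fold change of -0.20 ± 0.083 (SE) and an adjusted p = 0.530 by edgeR. Irf9 and Stat2, which encode parts of the complex that binds the ISRE, had fold changes of 1.09 (95% interval 0.946 to 1.26) and 1.04 (95% interval 0.903 to 1.19). For Irf9 both HFD-KO values were the higher ones, and Stat2 overlapped.

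Ifi27l2b gave the largest difference of the 37 members. It belongs with Ifi27 and Ifi27l2a to a family of small hydrophobic interferon-induced proteins, and the 3 genes lie side by side on chromosome 12 of GRCm39, from 103400470 to 103423482. Ifi27l2b (ENSMUSG00000021208, from 103417157 to 103423482 on the minus strand) had 38.1 and 42.5 CPM in HFD-WT and 22.3 and 24.2 CPM in HFD-KO, from 1103, 1169, 586 and 577 reads. The groups did not overlap, and the HFD-KO level was 0.576 times the HFD-WT level (95% interval 0.494 to 0.671). The log2 fold change was -0.80 ± 0.094 (SE), with an adjusted p = 0.058 by edgeR, just above the threshold. DESeq2's Wald test gave an adjusted p = 4.0e-05, and over the alternatives the adjusted p ranged from 1.1e-05 without HFD-KO replicate 2 to 0.352 without HFD-WT replicate 2. With HFD-KO replicate 1 left out it was 4.7e-05, with HFD-WT replicate 1 left out 0.119, and with no filter on low counts 0.00081. The log2 fold change stayed between -0.88 and -0.71 whichever library was left out.

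The 2 neighbours of Ifi27l2b differed less. Ifi27l2a had 7.84 and 7.995 CPM in HFD-WT and 6.23 and 6.11 CPM in HFD-KO, a log2 fold change of -0.36 ± 0.14 (SE) and an adjusted p = 0.504 by edgeR. Its groups did not overlap, and the estimate moved between -0.38 and -0.34 when single libraries were left out. Ifi27, the most abundant of the family, had 72.5 and 73.9 CPM in HFD-WT and 68.5 and 71.6 CPM in HFD-KO, a fold change of 0.957 (95% interval 0.842 to 1.09). No stretch of 100 bases in the transcripts of these 3 genes occurred in another gene.

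**Figure D3:**
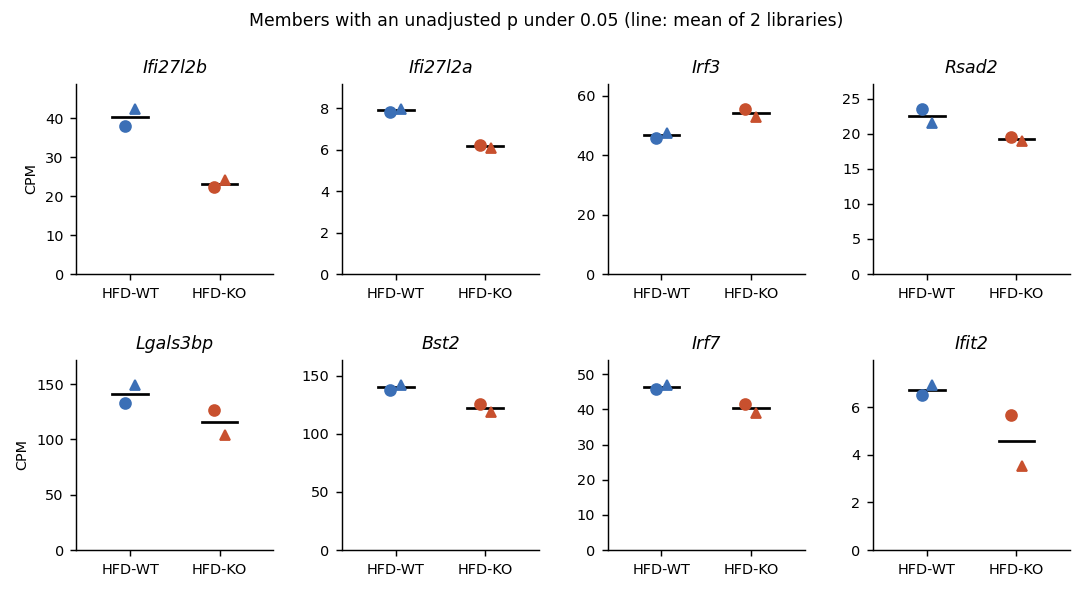
CPM in each library for the 8 members with an unadjusted p under 0.05, with each axis starting at 0. Circles are replicate 1, triangles are replicate 2 and the line is the mean of the 2 libraries. The groups are separate for all 8 genes, which were chosen by their p in these same libraries. The margin is widest for Ifi27l2b (38.1 and 42.5 against 22.3 and 24.2 CPM), and for Ifit2 HFD-KO replicate 2 at 3.52 CPM lies below replicate 1 at 5.66 CPM.

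The 6 OAS genes all had log2 fold changes below 0, and 0 of them had an unadjusted p under 0.05. OAS enzymes make short oligoadenylates upon binding double-stranded RNA, which activate RNase L. Oas3 (chromosome 5, 120891163 to 120915726) had 2.45 and 2.73 CPM in HFD-WT and 2.05 and 1.42 CPM in HFD-KO, from 71, 75, 54 and 34 reads. Its groups did not overlap (log2 fold change -0.57 ± 0.27 SE, edgeR's adjusted p = 0.606). Oas1g had 2.11 and 2.44 CPM in HFD-WT and 1.67 and 1.55 CPM in HFD-KO, also without overlap (log2 fold change -0.49 ± 0.26 SE, edgeR's adjusted p = 0.632). Its relative Oas1a overlapped, with 5.90 and 7.56 CPM in HFD-WT and 5.96 and 5.02 CPM in HFD-KO. Oasl2, an OAS-like gene, had 10.5 and 8.504 CPM in HFD-WT and 8.62 and 6.03 CPM in HFD-KO (edgeR's adjusted p = 0.637). Its log2 fold change of -0.37 moved between -0.66 and -0.14 when single libraries were left out. Oas2 and Oasl1 overlapped, with log2 fold changes of -0.23 and -0.05. Of the 6 genes, the interval of Oasl1 alone lay within 1.5-fold.

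The IFIT genes, whose products bind viral RNA and restrain its translation, differed from each other in direction and size. Ifit2 (chromosome 19, 34528094 to 34553819) had 6.49 and 6.94 CPM in HFD-WT and 5.66 and 3.52 CPM in HFD-KO, a log2 fold change of -0.54 ± 0.23 (SE) and an adjusted p = 0.551 by edgeR. HFD-KO replicate 2 was the lower library, and the log2 fold change was -0.93 without HFD-KO replicate 1 and -0.25 without HFD-KO replicate 2. Ifit1, with 2 ISRE matches like Ifit3 and Ifit3b, had 17.6 and 17.0 CPM in HFD-WT and 18.9 and 17.2 CPM in HFD-KO, a fold change of 1.05 (95% interval 0.897 to 1.22). Ifit3 had 30.5 and 27.8 CPM in HFD-WT and 29.7 and 22.8 CPM in HFD-KO. Ifit3b had 7.94 and 6.29 CPM in HFD-WT and 8.62 and 4.81 CPM in HFD-KO. Both genes overlapped between the groups and were lowest in HFD-KO replicate 2.

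Isg15 and Usp18 form a modifier and its protease. Isg15, which encodes a ubiquitin-like protein and has 3 ISRE matches, had 21.6 and 15.8 CPM in HFD-WT and 19.3 and 14.98 CPM in HFD-KO. The groups overlapped, with a fold change of 0.916 (95% interval 0.690 to 1.21). Usp18, which removes ISG15 and restrains the interferon receptor, had 24.4 and 22.3 CPM in HFD-WT and 21.7 and 20.0 CPM in HFD-KO. Both HFD-KO values were the lower ones, with a fold change of 0.892 (95% interval 0.766 to 1.04, adjusted p = 0.664 by edgeR).

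Of the 10 other antiviral effectors, Rsad2, Bst2 and Lgals3bp were lower at an unadjusted p under 0.05. Rsad2 encodes viperin, an enzyme that makes a chain-terminating nucleotide (chromosome 12, 26492745 to 26506451), and had 23.6 and 21.6 CPM in HFD-WT and 19.6 and 19.0 CPM in HFD-KO (log2 fold change -0.23 ± 0.089 SE, edgeR's adjusted p = 0.511). Cmpk2, a mitochondrial nucleotide kinase gene that lies next to Rsad2 on chromosome 12, had 10.3 and 10.1 CPM in HFD-WT and 11.05 and 10.3 CPM in HFD-KO. Rsad2 was thus lower in both HFD-KO libraries while its neighbour was slightly above, with a fold change of 1.05 (95% interval 0.876 to 1.26). Bst2 (chromosome 8, 71986899 to 71990100) had 137.9 and 142.2 CPM in HFD-WT and 125.3 and 118.7 CPM in HFD-KO (log2 fold change -0.20 ± 0.079 SE, edgeR's adjusted p = 0.518). Lgals3bp, which encodes a secreted glycoprotein that binds galectins (chromosome 11, 118283577 to 118292918), had 133.1 and 149.5 CPM in HFD-WT and 126.9 and 103.8 CPM in HFD-KO (log2 fold change -0.29 ± 0.12 SE, edgeR's adjusted p = 0.518). The log2 fold change of Lgals3bp was -0.44 without HFD-KO replicate 1 and -0.16 without HFD-KO replicate 2.

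None of the remaining effectors had an unadjusted p under 0.05 by edgeR. Mx2, a dynamin-like GTPase gene, had 6.21 and 4.51 CPM in HFD-WT and 5.96 and 7.24 CPM in HFD-KO, the highest fold change of the members at 1.23 (95% interval 0.882 to 1.71). Parp14, an ADP-ribosyltransferase gene, had 27.4 and 26.6 CPM in HFD-WT and 29.5 and 31.3 CPM in HFD-KO, both above HFD-WT, with a fold change of 1.13 (95% interval 0.986 to 1.28, adjusted p = 0.602 by edgeR). Ifi44, Ifi35, Xaf1 and Rtp4 overlapped between the groups, with log2 fold changes from -0.19 for Ifi44 to -0.05 for Ifi35. Rtp4 overlaps Masp1, an abundant gene on the other strand with 15250 reads against 1610 for Rtp4, and whether counting used the strand was not stated in the sources used here. Cxcl10, which encodes the chemokine of the list, had 9.22 and 9.09 CPM in HFD-WT and 10.4 and 7.20 CPM in HFD-KO. The HFD-KO libraries lay on either side of the HFD-WT libraries.

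The 2 HFD-KO libraries differed from each other in these genes. HFD-KO replicate 2 was below replicate 1 for 28 of the 37 members (75.7%), against 50.7% of all tested genes, and it was the lowest of the 4 libraries for 21 members (56.8%), against 29.2% of all tested genes. Relative to the HFD-WT mean, the median member was at -0.0068 on the log2 scale in HFD-KO replicate 1 and at -0.24 in replicate 2, while the HFD-WT libraries were at 0.010 and -0.010. By role, the median in replicate 2 was -0.49 for the OAS genes and -0.46 for the IFIT genes, against -0.17 and 0.078 in replicate 1. The median of the IFI27 family was alike in both, at -0.35 and -0.37. The medians of the transcription factors, at 0.075 and 0.10, lay above the HFD-WT mean in both libraries. Irf7 lay below it in both, at 41.6 and 39.0 CPM against 46.4 CPM. The medians of the RNA and nucleic acid sensors, at -0.00078 and -0.031, lay near the HFD-WT mean. Without HFD-KO replicate 1 the median log2 fold change over the members was -0.24, with 27 of 37 below 0, and without HFD-KO replicate 2 it was -0.0074, with 20 of 37 below 0.

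**Figure D4:**
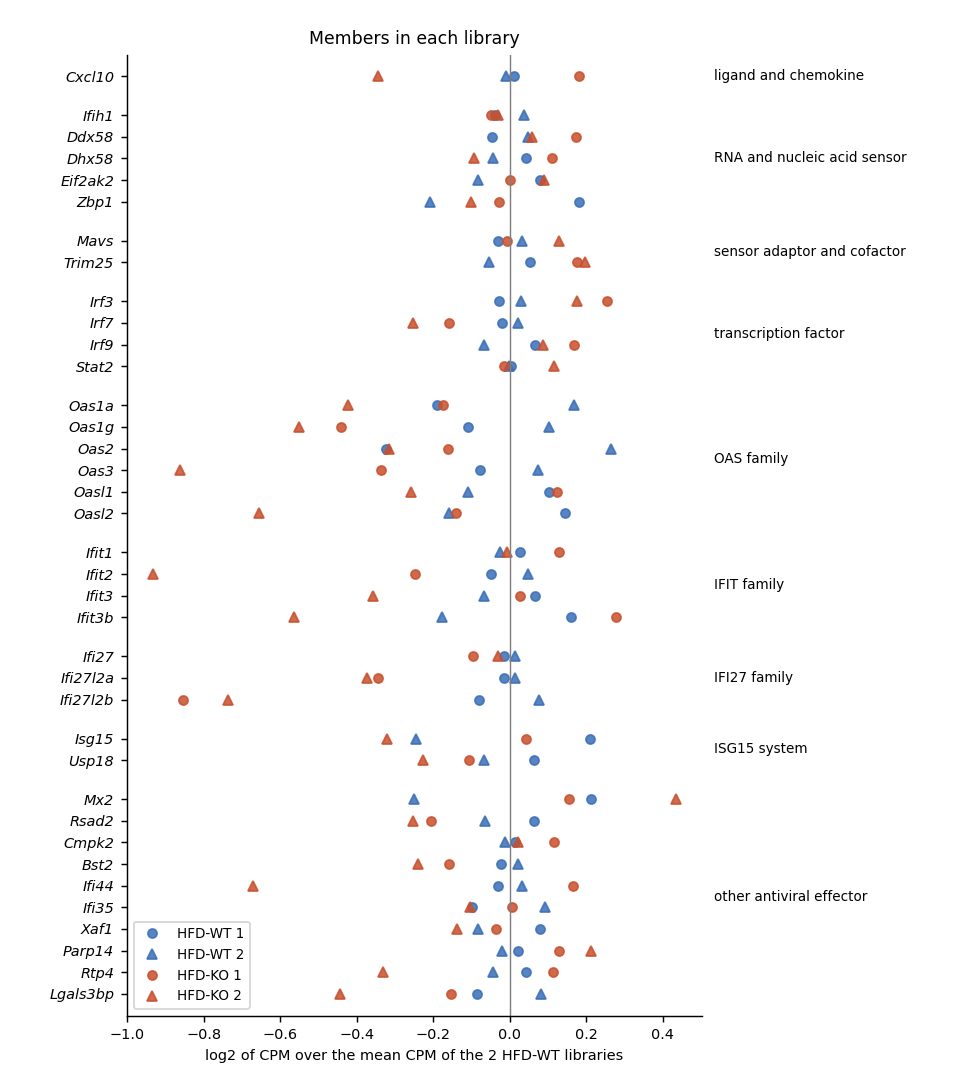
Each member in each library as log2 of its CPM over the mean of the 2 HFD-WT libraries, by role. Blue marks HFD-WT, red HFD-KO, circles replicate 1 and triangles replicate 2. Red triangles lie left of red circles for 28 of the 37 members, with medians of -0.24 and -0.0068, and both red points lie far left of 0 for Ifi27l2b.

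The other genes of the pathway were taken from a fixed list of 180, of which 150 were tested. Of the 21 interferon genes, 19 had 0 reads in all libraries, Ifng had 3 reads in all and Ifnk had 1. Interferon RNA was thus too low to test at this depth. No gene of the 14 tested receptor and JAK-STAT genes reached an unadjusted p under 0.05 with edgeR. Ifnar1 and Ifnar2, the subunits of the type I interferon receptor, had fold changes of 1.03 (95% interval 0.881 to 1.21) and 1.08 (95% interval 0.931 to 1.26). Jak1, Tyk2 and Tlr3, the kinases at the receptor and an endosomal RNA sensor, had log2 fold changes of 0.09, 0.04 and -0.03. Cgas and Sting1, parts of the pathway that senses cytosolic DNA, had log2 fold changes of -0.51 ± 0.44 (SE) and -0.44 ± 0.29 (SE). Both 95% intervals included no difference, at -1.55 to 0.52 for Cgas and -1.12 to 0.23 for Sting1. Their levels were low, from 0.419 to 0.836 CPM for Cgas and 1.72 to 3.34 CPM for Sting1.

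Over the 150 genes, 0 had an adjusted p under 0.05 by edgeR. At an unadjusted p under 0.05, the list held 2 higher genes (1.33%) and 8 lower genes (5.33%), against 4.25% and 4.73% of all tested genes. Their median log2 fold change was -0.01. The higher genes were Trim56, an E3 ligase gene, and Gvin1, a large GTPase gene, with log2 fold changes of 0.28 and 0.43. The lower genes included 3 of the IFI200 family of nucleic acid-binding proteins, Ifi207, Ifi204 and Ifi211. Ifi207 had 9.63 and 11.7 CPM in HFD-WT and 6.30 and 6.65 CPM in HFD-KO, a log2 fold change of -0.72 ± 0.15 (SE) and an adjusted p = 0.233 by edgeR. The others were Mlkl, the effector of necroptosis, Ifi30, a lysosomal thiol reductase gene, Irf8, a transcription factor of myeloid cells, Ly6e, a membrane protein gene, and Xdh, the xanthine dehydrogenase gene, with log2 fold changes from -0.60 for Mlkl to -0.34 for Ly6e. Xdh had 186.2 and 187.4 CPM in HFD-WT and 147.1 and 140.8 CPM in HFD-KO, with an adjusted p = 0.233 by edgeR and 0.026 by DESeq2's Wald test. The number of lower genes moved with the library left out. Over all tested genes it moved too, but not always in the same direction.

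Markers of other cells of the liver also differed in level between the groups. All 15 markers of Kupffer cells and macrophages were detected, their summed expression was 565 and 706 CPM in HFD-WT and 478 and 435 CPM in HFD-KO, and 14 of 15 had log2 fold changes below 0, with a median of -0.48. An unadjusted p under 0.05 was reached by 10 of them, all with lower values in HFD-KO, and an adjusted p under 0.05 by 0 of them with edgeR and by 3 with DESeq2's Wald test (Cd5l, Vsig4 and Mpeg1). The part of these cells in the lower values of Bst2, Lgals3bp, Irf7, Irf8, Ifi30 and the IFI200 genes was not tested. The 9 markers of plasmacytoid dendritic cells summed to 192 and 205 CPM in HFD-WT and 164 and 159 CPM in HFD-KO, and most of this sum was Bst2, itself a member. Of the others, Ly6d was lower in HFD-KO (log2 fold change -0.92, adjusted p = 0.058 by edgeR and 2.1e-06 by DESeq2). It had 43.1 and 51.5 CPM in HFD-WT and 23.5 and 26.5 CPM in HFD-KO. Tcf4 was higher (log2 fold change 0.44, adjusted p = 0.289 by edgeR and 0.722 by DESeq2). Both genes had an unadjusted p under 0.05 by edgeR. Siglech, the defining marker among the 9, had between 0.251 and 0.483 CPM in every library. The 10 sinusoidal endothelial markers summed to 368 and 416 CPM in HFD-WT and 362 and 373 CPM in HFD-KO, with a median log2 fold change of -0.05. Among them Lyve1 was lower in both HFD-KO libraries (log2 fold change -0.70, adjusted p = 0.233 by edgeR and 0.035 by DESeq2). The 12 T cell and NK cell markers summed to between 6.74 and 14.1 CPM, with the highest value in HFD-KO replicate 1, and the 8 neutrophil markers to between 4.29 and 9.16 CPM. All 11 tested markers of B cells and plasma cells had log2 fold changes above 0, with a median of 1.69. By edgeR, 6 of them had an unadjusted p under 0.05 and 0 an adjusted one. Most of their sum in HFD-KO replicate 1 was Ighm (73.9 CPM) and Igkc (32.7 CPM), while Derl3 and Igha were highest in HFD-KO replicate 2. In HFD-KO replicate 1, the library with the largest sum of these markers, the median member was at the HFD-WT level. The medians of the OAS genes and the IFI27 family there were -0.17 and -0.35, and the part of those cells was not tested.

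**Figure D5:**
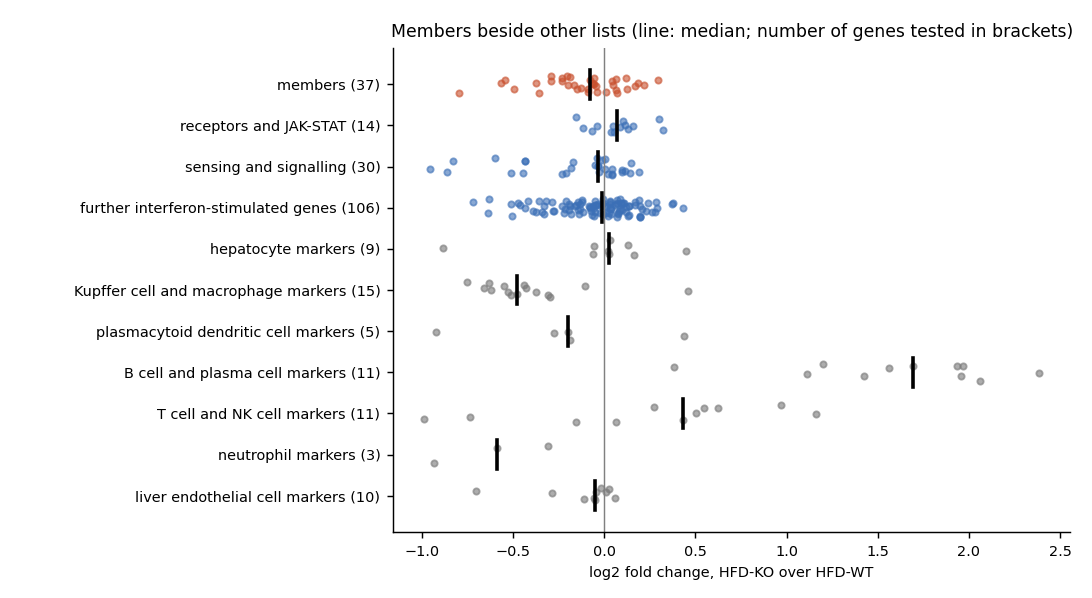
Log2 fold change of HFD-KO over HFD-WT for every tested gene of the members (red), of other pathway genes (blue) and of cell type markers (grey). Points are genes, the black line is the median of a list and brackets give the number of genes. The members have a median of -0.08, the Kupffer cell and macrophage markers one of -0.48 and the sinusoidal endothelial markers one of -0.05. The B cell and plasma cell markers have the highest median, 1.69.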

How the data were processed

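Liver RNA of 2 HFD-WT and 2 HFD-KO mice or pools was sequenced with paired ends from a directional library. The authors trimmed and aligned reads with the MGI tool, and quantified genes of GENCODE with Partek Genomics Suite. Versions, use of strand and treatment of multiply aligned reads are not given in the sources used here. The submitters' processing notes list GRCm39 and mm10. Gene starts in the table equalled those of GRCm38 for 2.21% of 25600 genes, so positions from the table are given as GRCm39 and those of RefSeq upstream sequences as GRCm38.p6.

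The deposited read counts per gene are whole numbers without normalization. The TPM values deposited by the authors scale counts by length and were used for levels. The deposited RPKM values and the deposited CPM score, which uses an adjusted library size, were not used. No column of another sample was found.

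The counts were tested with edgeR 4.0.16 under R 4.3.3. After filterByExpr, libraries were scaled by TMM and compared by the two-sided quasi-likelihood test, p-values were adjusted by the Benjamini-Hochberg method over 12967 genes, and 95% intervals came from the same fit. DESeq2 1.42.0 and other settings served as alternatives. With 4 libraries, the smallest exact permutation p is 0.333, so none was run. The edgeR step was tested on simulated data. Sequences and overlaps were handled in Python 3.11.15 and plots drawn with matplotlib 3.10.9.

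The members, the lists and the tests were chosen with earlier results of these data known. Members were described in full if they had an unadjusted p under 0.05, if the groups did not overlap with an absolute log2 fold change of at least 0.3, or if they were among the 5 with the highest mean CPM. Other pathway genes were named at an unadjusted p under 0.05 or as core parts of the pathway. 1 gene of the pathway list is not reported here.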

Additional observations from a re-analysis of the deposited data

How the results depend on the processing

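Counts of members and pathway genes moved with the test, the filter and the library left out, and the cause was not tested. At an adjusted p under 0.05, 1 member was lower with no filter on low counts and 1 with DESeq2's Wald test, and between 0 and 4 were lower when single libraries were left out, with 4 without HFD-KO replicate 1 (Ifi27l2b, Ifit2, Lgals3bp and Oasl2). At an unadjusted p under 0.05, 2 members were higher with at least 1 CPM in every library of a group (530 of all genes). The number was 0 with the library size alone (345 of all genes) and 0 with DESeq2's Wald test (304 of all genes). The number of lower members was 2 with DESeq2's Wald test (372 of all genes). Both numbers also moved with the library left out, for the members and for all genes, but not always in the same direction. The median log2 fold change of the members ranged from -0.24 to -0.0074 when libraries were left out. Of the other pathway genes, 4 were higher with no filter, 0 with DESeq2's Wald test and 0 to 8 with single libraries left out, where 3 to 26 were lower. Of all tested genes, 7 were higher and 3 lower at an adjusted p under 0.05, against 81 and 81 with no filter, 56 and 61 with DESeq2's Wald test, 376 and 329 without HFD-KO replicate 1 and 226 and 185 without HFD-KO replicate 2. With 1 library left in a group, its spread is assumed to equal that of the other group.

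The labels share replicate numbers between groups but describe no pairing, and same-numbered libraries did not deviate together (r = -0.087 across 12967 genes). With the replicate block, 0 members were higher and 4 lower, and 4 other pathway genes were higher, at an unadjusted p under 0.05, 0 members passed an adjusted p under 0.05, and 12 genes of all were higher and 8 lower. Of 130 values of 13 members described in full over 10 alternatives, 123 kept their direction and side of the threshold, 6 passed it in the same direction and 1 turned, Mavs at -0.0074 without HFD-KO replicate 2, with a range up to 0.13 over the libraries left out. Members with few reads, such as Oas1g with 209 and Oas3 with 234 in all libraries, were measured with less precision from counting alone, and interferon genes were at or near 0 reads.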
